A study of Homo sapiens with 16 samples.

Results

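The genes described are 38 lysosomal hydrolases, activators and membrane proteins, taken by gene symbol from the 28278 symbols counted in each of 16 RNA-seq libraries. They comprise 11 proteases, 9 glycosidases, 4 sulfatases, 5 proteins of lipid breakdown and 9 membrane proteins. All 38 symbols had a row in every file. The libraries came from SKMEL28 and A375, established human melanoma cell lines that both carry an activating BRAF mutation. In SKMEL28 the groups were clone 3 and clone 13 of a MITF and TFE3 double knockout (DKO, 3 libraries each), the MITFKO parent in which TFE3 was then edited with CRISPR-Cas9 (3 libraries) and unedited wild-type cells (1 library, numbered replicate 4). In A375 they were TFE3KO cells and wild-type cells (3 libraries each), neither of them edited for MITF. Per the labels' protocols, RPMI was the medium of SKMEL28 and DMEM that of A375, renewed before harvest. Replicates were separate flasks of 1 clone or line, so a p-value measures the spread between flasks, not between independently edited clones.

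Lysosomes are acidic compartments in which soluble hydrolases take apart proteins, glycans, sulfated glycosaminoglycans and lipids, while membrane proteins hold the acid and export the products. TFEB and TFE3 switch on many of their genes from the nucleus when the kinase mTORC1 is inactive, by binding E-box sequences known in lysosomal promoters as CLEAR elements. MITF, the master factor of pigment cells, belongs to the same family, binds related sequences and also drives melanosome genes, the melanosome being a lysosome-related organelle. The comparisons ask which of these genes follow editing of MITF, and which follow editing of TFE3 with or without an edited MITF.

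Total counts per library ran from 17320855 to 31269126. All levels are CPM, counts relative to library size on 1 trimmed-mean scale over the 16 libraries, and they compare a gene between samples, not genes with each other. TFE3 had 8.35, 8.77 and 11.8 CPM in clone 3 and 43.6, 48.1 and 49.3 CPM in clone 13, against 72.3, 74.3 and 79.7 CPM in the libraries labelled MITFKO and 45.0 CPM in SKMEL28 wild type. In A375 it had 11.7, 12.2 and 10.9 CPM in TFE3KO and 119.5, 114 and 125 CPM in wild type. Clone 13 thus kept far more TFE3 mRNA than clone 3, at the level of SKMEL28 wild type, so TFE3 mRNA gives no check of the TFE3 label of clone 13. MITF mRNA averaged 512 ± 30.8 CPM in the libraries labelled MITFKO (SD, n = 3), against 539 CPM in wild type, so MITF mRNA gives no check of that label. It averaged 802 ± 29.8 CPM in clone 3 and 894 ± 65.3 CPM in clone 13, and in A375 18.0 ± 0.787 CPM in TFE3KO and 34.7 ± 4.01 CPM in wild type (SD, n = 3 each). TFEB averaged 1.35 ± 0.115, 1.41 ± 0.229 and 1.63 ± 0.256 CPM in clone 3, clone 13 and MITFKO, 1.60 CPM in SKMEL28 wild type, and 1.42 ± 0.331 and 2.63 ± 0.835 CPM in A375 TFE3KO and wild type (SD, n = 3 but for SKMEL28 wild type). TFEC summed to at most 17 counts in any group. Replicate 2 of clone 13 stood apart from its 2 replicates, with a chi-square per degree of freedom of 21.9 and 23.3, against 3.2 to 7.14 for the other replicate pairs. Of 10 melanocyte markers, 8 or 9 averaged at least 1 CPM in each SKMEL28 group, while A375 had 5 and TYR was at 0 there. Their summed level was 7240 to 8050 CPM in clone 3, 8190 to 9930 in clone 13, 6430 to 6640 in MITFKO and 15100 in SKMEL28 wild type, and in A375 1270 to 1350 in TFE3KO and 684 to 704 in wild type. MLANA averaged 3.22 ± 0.635 CPM in MITFKO (SD, n = 3), against 739 CPM in wild type. Leukocyte markers summed to at most 1.48 CPM in any library. The 4 epithelial markers summed to at most 1.33 CPM in MITFKO, against 33.2 CPM in SKMEL28 wild type, nearly all of it CDH1, and to at most 3.76 CPM in the clones and 24.9 CPM in A375. The 4 endothelial markers summed to at most 12.4 CPM in any library. The 5 fibroblast markers summed to 103 to 111 CPM in clone 3, 76.4 to 89.3 in clone 13, 52.1 to 62 in MITFKO and 45.6 in wild type, and at most 7.13 CPM in A375, but in SKMEL28 LUM alone made up most of each sum and COL1A2 averaged at most 0.485 CPM. The part of these markers in the results was not tested. In bulk RNA, fewer cells of a type and less RNA per cell cannot be told apart.

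Differences were tested gene by gene with edgeR's quasi-likelihood test and given as log2 fold changes (log2FC). Those with an adjusted p under 0.05, by Benjamini-Hochberg over all genes, are called, and rose or fell is used only of them. Of 36 members tested in SKMEL28, 19 rose and 3 fell in MITFKO against wild type, where 48.6% of all genes were called. Clone 3 had 12 rises and 5 falls relative to MITFKO, against 35.9% of all genes called, and clone 13 had 24 rises and 3 falls, against 40.7%. In A375 12 of 35 members tested rose and 9 fell in TFE3KO, against 43.3% of all genes called. The members' median log2 fold change was 0.36 in MITFKO, 0.05 in clone 3, 0.27 in clone 13 and 0.06 in A375, beside medians of 0.01, -0.01, -0.02 and 0.00 over all genes. Called members thus made up 61.1%, 47.2%, 75% and 60% of those tested, and the largest step above the background of its comparison was in clone 13. CTSO and NEU1 could not be tested anywhere. CTSO, a cysteine protease, gave 5 counts over all 16 libraries together, and NEU1, the lysosomal sialidase, gave 7; whether so few counts come from little mRNA or from how reads were assigned to these genes was not tested. LAMP3 did not pass the count filter in A375.

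**Figure D1:**
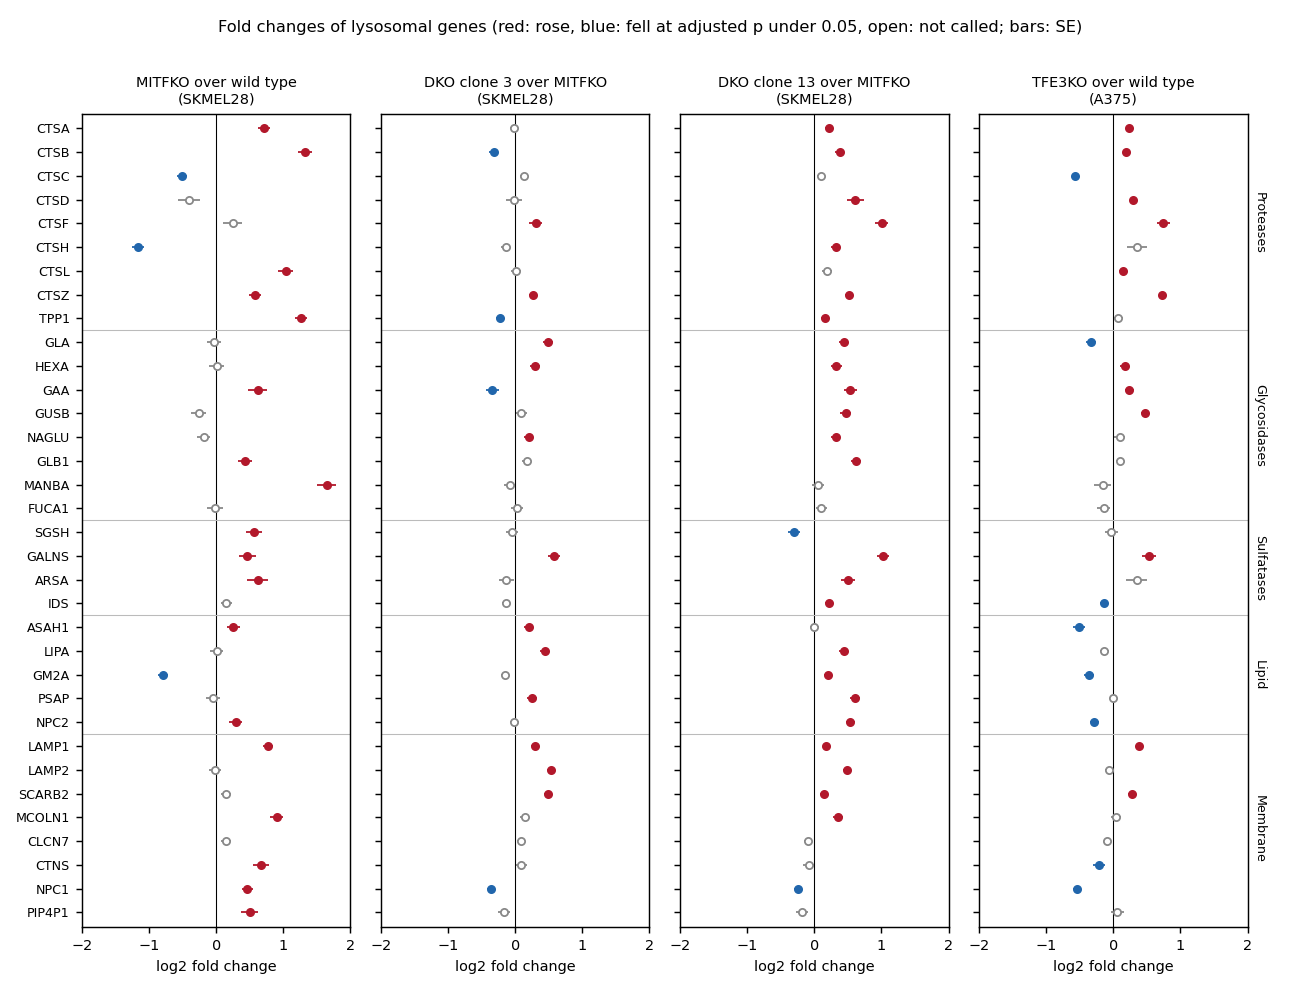
Log2 fold changes with standard errors of 34 members in the 4 comparisons, grouped from top to bottom as proteases, glycosidases, sulfatases, lipid proteins and membrane proteins. Red and blue points passed the adjusted p of 0.05 and open points did not; LAMP3 and CTSK lie beyond the scale or have wide errors and are not drawn, nor are the untested CTSO and NEU1. Clone 13 has 24 members to the right of 0 in red, and 3 of the 5 lipid proteins are blue in A375 but none in either DKO clone. LAMP3, the member with the steepest fall in both clones, is not among the points.

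With MITF edited in SKMEL28, as the libraries are labelled, the rises spread over every role. They took in 5 of 10 proteases tested (CTSB, TPP1, CTSL, CTSA and CTSZ), 3 of 8 glycosidases (MANBA, GAA and GLB1), 3 of 4 sulfatases (ARSA, SGSH and GALNS), 2 of 5 lipid proteins (NPC2 and ASAH1) and 6 of 9 membrane proteins (LAMP3, MCOLN1, LAMP1, CTNS, PIP4P1 and NPC1). The falls were the aminopeptidase cathepsin H, the dipeptidyl peptidase cathepsin C and the GM2 activator. Over all genes 25.2% rose and 23.4% fell in this comparison. The wild-type side is 1 library, whose spread was taken from the other groups. Its file header gives another alignment input than those of most other libraries, and the part of this in the comparison was not tested.

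Among proteases, CTSB encodes cathepsin B, a cysteine protease that cuts within proteins and from their C-terminal end. It had 1949, 2006 and 2129 CPM in the libraries labelled MITFKO, against 814 CPM in wild type (log2FC 1.32 ± 0.10 SE, adjusted p = 5.8e-10). TPP1, which clips tripeptides from N-terminal ends and is deficient in a childhood neuronal storage disease, had 253, 259.8 and 268 CPM in MITFKO, against 109 CPM in wild type (log2FC 1.26 ± 0.089 SE, adjusted p = 9.7e-11). CTSL, the cysteine endopeptidase cathepsin L, had 160.1, 165 and 173 CPM in MITFKO, against 81.4 CPM in wild type (log2FC 1.03 ± 0.11 SE, adjusted p = 1.45e-07). Every library labelled MITFKO was close to 2 times the wild-type library or more for these 3 proteases. CTSH ran the other way, with 104, 103 and 112 CPM in MITFKO, against 239 CPM in wild type (log2FC -1.17 ± 0.090 SE, adjusted p = 4.02e-10). CTSC, which activates granule serine proteases in immune cells, had 166, 158 and 165 CPM in MITFKO, against 233 CPM in wild type (log2FC -0.51 ± 0.077 SE, adjusted p = 8.25e-06). The log2 fold changes of the remaining called proteases were 0.71 for CTSA, the carboxypeptidase that protects GLB1 and NEU1, and 0.57 for CTSZ, another carboxypeptidase. CTSD, the main lysosomal aspartic protease, was not called (log2 fold change -0.41, adjusted p = 0.0649).

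MANBA, the beta-mannosidase that removes the last mannose of N-linked glycans, had the largest rise of a hydrolase, with 68.1, 63.4 and 64.5 CPM in MITFKO, against 20.9 CPM in wild type (log2FC 1.64 ± 0.14 SE, adjusted p = 2.28e-09). GAA, which frees glucose from glycogen, and GLB1, the beta-galactosidase, rose by log2 values of 0.61 and 0.43. HEXA, GLA and FUCA1 lay within 0.05 of 0 on the log2 scale. GM2A encodes the protein that lifts the ganglioside GM2 out of membranes for hexosaminidase A. It had 150.3, 154 and 140.4 CPM in MITFKO, against 258 CPM in wild type (log2FC -0.80 ± 0.080 SE, adjusted p = 2.29e-08). HEXA, whose product it serves, had 257, 258 and 267 CPM in MITFKO and 260.4 CPM in wild type and was not called (adjusted p = 0.985).

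LAMP3 is a membrane protein related to LAMP1 that is found in dendritic cells and is induced by the unfolded protein response. It had 17.8, 17.0 and 15.6 CPM in MITFKO, against 0.861 CPM in wild type (log2FC 4.28 ± 0.42 SE, adjusted p = 1.66e-08), so all 3 MITFKO libraries were far above a wild-type library that held little of it. MCOLN1, the calcium channel of the lysosome membrane, rose by 0.90, LAMP1, an abundant glycoprotein of that membrane, by 0.77, the cystine exporter CTNS by 0.67, the phosphatidylinositol phosphatase PIP4P1 by 0.50 and the cholesterol exporter NPC1 by 0.46, all on the log2 scale. The median over the genes of chromosome 19, which carries MCOLN1, was 0.29, and that of chromosome 22, which carries ARSA, was 0.21. The calls of GAA, GALNS and ARSA ended when a GC-content offset was added to the fit (adjusted p = 0.199, 0.079 and 0.555), and the falls then numbered 7. The call of ASAH1 ended without MITFKO replicate 1 (adjusted p = 0.0933) or MITFKO replicate 2 (0.0873).

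**Figure D2:**
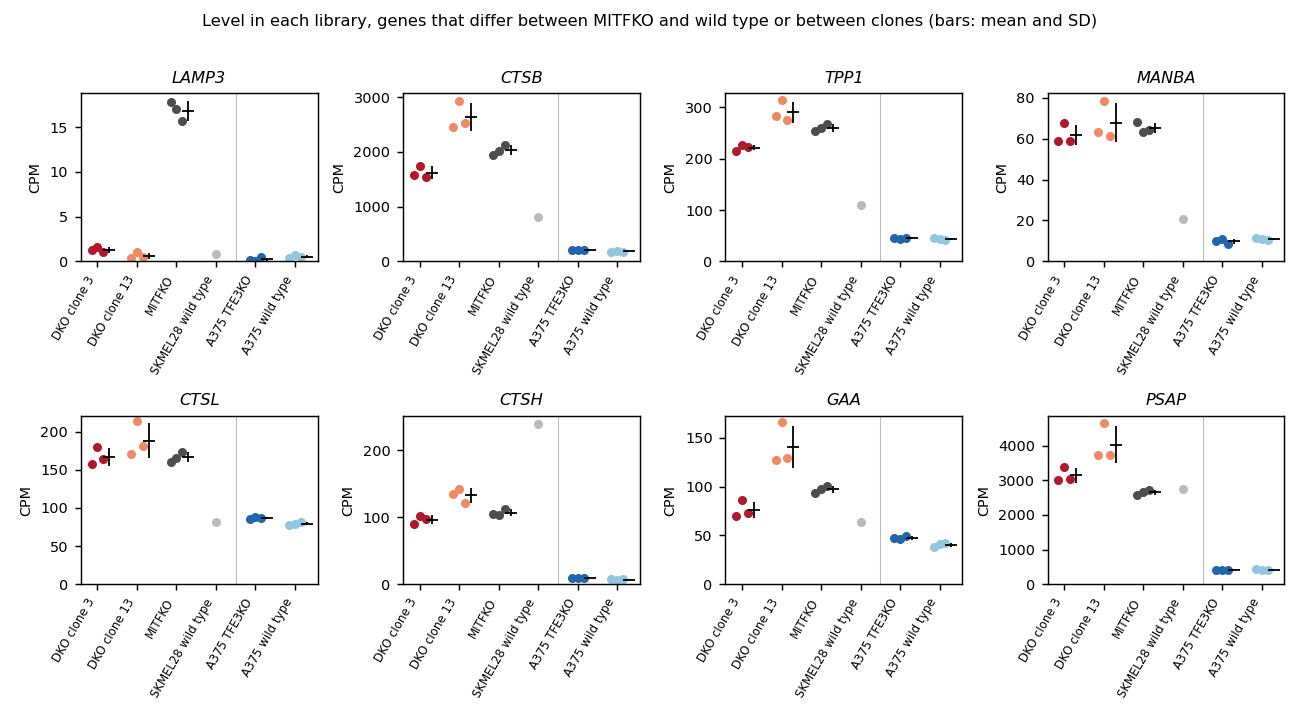
CPM in every library of 8 members that differ between MITFKO and wild type or between the clones, 1 panel a gene, with groups in the order clone 3, clone 13, MITFKO and wild type for SKMEL28, then TFE3KO and wild type for A375; points are libraries, and the marks beside them are group means with SD. LAMP3 stands out only in the 3 libraries labelled MITFKO, while CTSB, TPP1, CTSL and MANBA stay above the wild-type library in both DKO clones as well.

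The TFE3 comparisons set each DKO clone against the libraries labelled MITFKO, and A375 TFE3KO against A375 wild type. Both clone comparisons share their 3 MITFKO libraries, whereas the A375 comparison shares none with them. Called the same way in clone 3, clone 13 and A375 were 7 members. CTSF, CTSZ, GALNS, HEXA, LAMP1 and SCARB2 rose and NPC1 fell. Of all genes tested in both lines, 3.94% rose and 2.7% fell in all 3 comparisons, a share to which the MITFKO libraries common to both clones contribute. The 6 members that rose in both clone 3 and A375 were 50% of the 12 that rose in the clone and 50% of the 12 in A375, beside 27.2% and 24.2% for all genes. Of the genes tested in both lines, 5.59% rose in both clone 3 and A375 and 4.2% fell in both. For clone 13 the 11 members that also rose in A375 were 45.8% of the 24 that rose in the clone and 91.7% of the 12 in A375, beside 30% and 30% for all genes, and 6.91% of all genes rose and 5.72% fell in both comparisons. The members' own shares of rises were 33.3% in clone 3, 66.7% in clone 13 and 34.3% in A375. Whether the overlaps exceed what these shares alone would give was not tested.

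CTSF, cathepsin F, is a cysteine protease with an extended propeptide. It had 26.8, 31.4 and 30.5 CPM in clone 3 and 43.8, 52.6 and 48.1 CPM in clone 13, against 22.8, 22.8 and 26.5 CPM in MITFKO. A375 had 30.4, 29.1 and 23.6 CPM in TFE3KO, against 15.8, 17.6 and 16.7 CPM in wild type. No library of an edited group overlapped its comparison group, and the log2 fold changes were 0.30 in clone 3 (adjusted p = 0.0239), 1.00 in clone 13 (4.87e-08) and 0.74 in A375 (4.24e-09). The clone 3 call ended without MITFKO replicate 1 (adjusted p = 0.107), MITFKO replicate 2 (0.109), clone 3 replicate 2 (0.0969) or clone 3 replicate 3 (0.0793). CTSZ had 522, 576 and 528 CPM in clone 3 and 609, 694 and 645 CPM in clone 13, against 431, 461 and 469.6 CPM in MITFKO. In the A375 line, TFE3KO had 231, 195 and 206 CPM, against 129, 126 and 129 CPM in wild type. The 3 TFE3KO libraries were all well above the wild-type ones, and the log2 fold change of 0.72 ± 0.044 SE in A375 (adjusted p = 2.42e-18) stood beside 0.26 in clone 3 (0.00192) and 0.52 in clone 13 (4.86e-07).

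GALNS removes sulfate from keratan sulfate and chondroitin sulfate. It had 50.9, 53.5 and 51.6 CPM in clone 3 and 63.0, 81.1 and 69.3 CPM in clone 13, against 33.9, 34.2 and 37.2 CPM in MITFKO. The A375 values were 21.1, 19.1 and 20.9 CPM in TFE3KO, against 14.5, 13.7 and 14.2 CPM in wild type. It was the member with the largest rise in each clone (log2FC 0.57 ± 0.089 SE, adjusted p = 3.27e-05 in clone 3 and log2FC 1.02 ± 0.088 SE, adjusted p = 6.48e-09 in clone 13), and no groups overlapped in either line (log2FC 0.53 ± 0.10 SE, adjusted p = 2.16e-05 in A375). HEXA encodes the alpha subunit of hexosaminidase A, the enzyme deficient in Tay-Sachs disease. It had 297, 349.9 and 310.2 CPM in clone 3 and 303, 377 and 300.4 CPM in clone 13, against 257, 258 and 267 CPM in MITFKO. In A375 it had 56.6, 67.4 and 58.4 CPM in TFE3KO, against 54.2, 53.3 and 55.0 CPM in wild type. The A375 groups were separated only narrowly (adjusted p = 0.0265), and that call ended without wild-type replicate 1 (adjusted p = 0.0658), wild-type replicate 2 (0.0839) or TFE3KO replicate 2 (0.315), and with DESeq2 (adjusted p = 0.0824).

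LAMP1 had 526, 538 and 505 CPM in clone 3 and 475, 501 and 480.0 CPM in clone 13, against 419, 426 and 442 CPM in MITFKO. A375 had 316, 329 and 340.2 CPM in TFE3KO, against 245, 261 and 254 CPM in wild type. All edited libraries were above their comparison group (log2 fold changes 0.29, 0.18 and 0.38 in clone 3, clone 13 and A375, adjusted p = 0.000176, 0.0086 and 5.35e-13). In A375 the genes of chromosome 13, which carries LAMP1, had a median of 0.31, beside the 0.38 of LAMP1. SCARB2 encodes LIMP-2, a membrane receptor that sorts cargo to lysosomes. It had 595, 621 and 611 CPM in clone 3 and 480.4, 490.0 and 464 CPM in clone 13, against 448, 434 and 425 CPM in MITFKO. In the A375 line, TFE3KO had 125, 121 and 125 CPM, against 98.8, 97.1 and 112 CPM in wild type. Its groups did not overlap in any of the 3 comparisons. In clone 13 the log2 fold change of 0.14 stood beside a median of -0.38 over chromosome 4, which carries the gene, and the call ended without MITFKO replicate 1 (adjusted p = 0.0558), MITFKO replicate 2 (0.12), MITFKO replicate 3 (0.133) or clone 13 replicate 1 (0.0708).

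NPC1, the membrane protein that moves cholesterol out of the lysosome, was the member that fell in all 3. It had 122, 127 and 127 CPM in clone 3 and 133, 147 and 129 CPM in clone 13, against 161, 164 and 158 CPM in MITFKO. The A375 values were 54.7, 46.5 and 47.4 CPM in TFE3KO, against 69.7, 73.4 and 74.0 CPM in wild type. Every edited library was lower than every library of its comparison group (log2 fold changes -0.36, -0.24 and -0.54 in clone 3, clone 13 and A375, adjusted p = 6.47e-05, 0.00254 and 1.48e-10). The genes of chromosome 18, which carries NPC1, had medians of -0.21, 0.02 and -0.26 in the same comparisons.

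**Figure D3:**
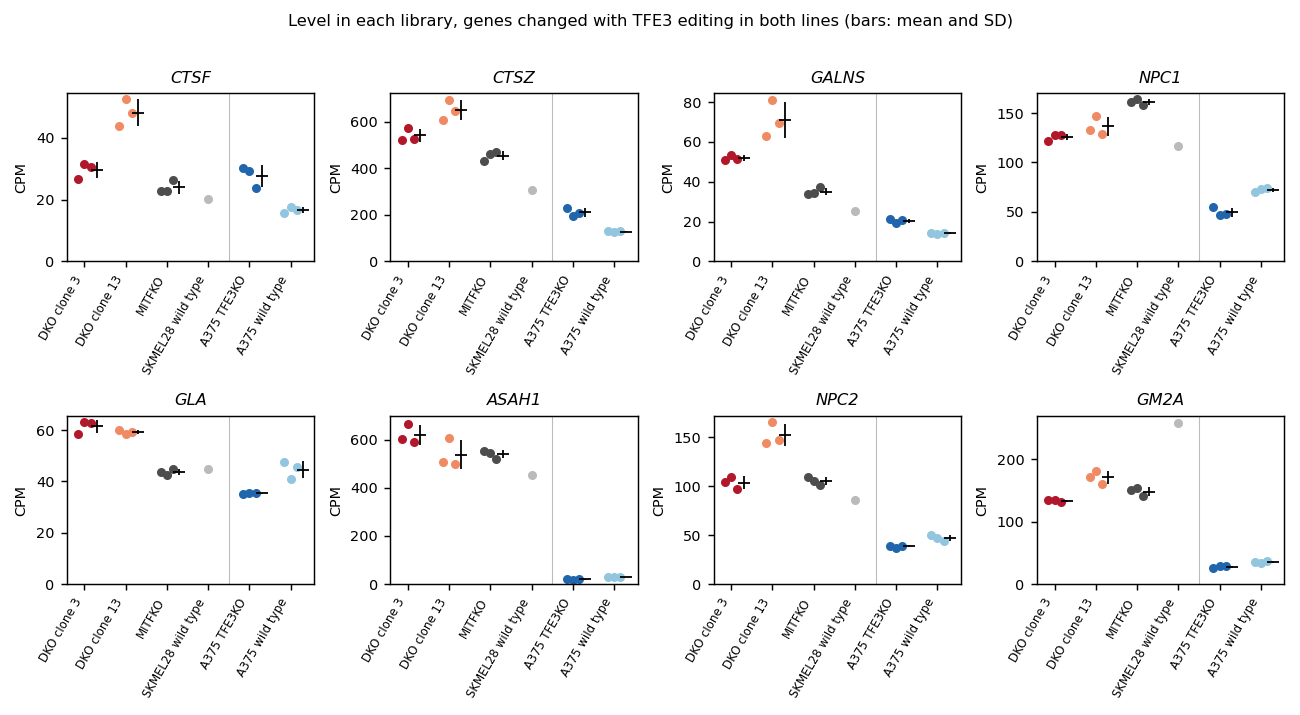
CPM in every library of CTSF, CTSZ, GALNS, NPC1, GLA, ASAH1, NPC2 and GM2A, 1 panel a gene. Each was called the same way in both DKO clones and in A375, or in opposite ways in a clone and A375. HEXA, LAMP1, SCARB2, CTSB, GAA and IDS were also so called and are not drawn. Groups run in the order clone 3, clone 13, MITFKO and wild type for SKMEL28, then TFE3KO and wild type for A375. Points are libraries, and the marks beside them are group means with SD. GALNS, CTSF and CTSZ sit higher in the edited groups of both lines and NPC1 lower, whereas GLA is higher in the DKO clones and lower in A375 TFE3KO.

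The promoters of the 7 shared members are shown for their E-boxes, the sequence that MITF and TFE3 bind, save that of HEXA, which has no single window. Each window runs from 250 bases before to 50 after the RefSeq transcription start in GRCh38.p14. They lie at chr13:113296989-113297288 on the plus strand, chr16:88856898-88857197 on the minus strand, chr11:66568557-66568856 on the minus strand, chr20:59007205-59007504 on the minus strand, chr4:76213775-76214074 on the minus strand and chr18:23586457-23586756 on the minus strand. They are written 5′ to 3′ on the gene's strand, and capitals mark the E-box CACGTG, which reads the same on both strands.
LAMP1: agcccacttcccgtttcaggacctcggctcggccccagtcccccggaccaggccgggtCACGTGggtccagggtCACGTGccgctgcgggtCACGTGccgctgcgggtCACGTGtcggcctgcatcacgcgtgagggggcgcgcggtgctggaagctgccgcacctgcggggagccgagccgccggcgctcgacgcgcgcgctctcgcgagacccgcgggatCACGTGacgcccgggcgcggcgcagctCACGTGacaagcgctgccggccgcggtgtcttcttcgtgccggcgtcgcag
GALNS: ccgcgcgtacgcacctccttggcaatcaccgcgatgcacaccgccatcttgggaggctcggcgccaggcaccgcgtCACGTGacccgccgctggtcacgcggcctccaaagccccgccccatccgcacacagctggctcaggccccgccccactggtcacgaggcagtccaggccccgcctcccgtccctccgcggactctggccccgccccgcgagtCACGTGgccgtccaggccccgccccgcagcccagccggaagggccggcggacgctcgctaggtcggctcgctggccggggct
CTSF: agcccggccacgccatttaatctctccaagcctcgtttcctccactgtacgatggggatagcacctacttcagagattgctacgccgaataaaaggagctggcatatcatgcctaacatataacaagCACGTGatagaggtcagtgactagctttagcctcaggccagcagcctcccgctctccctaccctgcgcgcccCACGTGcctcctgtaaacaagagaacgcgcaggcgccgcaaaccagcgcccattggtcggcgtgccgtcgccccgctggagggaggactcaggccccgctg
CTSZ: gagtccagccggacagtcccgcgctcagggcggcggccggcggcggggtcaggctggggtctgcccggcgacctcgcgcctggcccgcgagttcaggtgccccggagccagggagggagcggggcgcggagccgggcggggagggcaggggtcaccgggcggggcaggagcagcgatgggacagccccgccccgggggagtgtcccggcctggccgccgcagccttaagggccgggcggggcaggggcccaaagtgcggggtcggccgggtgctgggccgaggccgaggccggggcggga
SCARB2: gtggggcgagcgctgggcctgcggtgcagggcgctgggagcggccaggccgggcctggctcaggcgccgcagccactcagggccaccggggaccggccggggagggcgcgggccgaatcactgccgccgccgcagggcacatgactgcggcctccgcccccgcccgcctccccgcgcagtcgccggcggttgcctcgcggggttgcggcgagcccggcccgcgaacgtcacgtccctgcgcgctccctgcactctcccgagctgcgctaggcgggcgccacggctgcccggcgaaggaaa
NPC1: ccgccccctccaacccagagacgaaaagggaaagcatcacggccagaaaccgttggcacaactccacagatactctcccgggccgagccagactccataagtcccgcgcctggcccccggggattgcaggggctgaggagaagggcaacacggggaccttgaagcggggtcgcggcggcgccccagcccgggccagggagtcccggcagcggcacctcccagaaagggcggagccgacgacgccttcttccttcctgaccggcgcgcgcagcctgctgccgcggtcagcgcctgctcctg
LAMP1 had 6 E-boxes in its window, and GALNS and CTSF had 2 each. CTSZ and SCARB2, which rose, and NPC1, which fell, had 0. Of 25 members with such a window, 9 held an E-box (CLCN7, CTSA, CTSD, CTSF, GAA, GALNS, LAMP1, MCOLN1 and NEU1), against 7.26% of 35116 windows of the same length and 12.5% of the genes tested in SKMEL28 that had a window. The longer CLEAR palindrome GTCACGTGAC, which contains the E-box, was in the windows of GAA, GALNS and MCOLN1, against 0.353% of all windows. The M-box TCATGTG, searched on both strands, was in those of CTSA, SCARB2 and TPP1, against 2.92%. Members were counted by gene, but the 0.353% and 2.92% are shares of windows, and shares by gene were not computed for these sequences. Of the 8 tested members with an E-box, 5 rose and 0 fell in MITFKO, 3 rose and 1 fell in clone 3, 7 rose and 0 fell in clone 13, and 6 rose and 0 fell in A375. Of the 16 tested members with a window but no E-box, 7 rose and 3 fell in MITFKO, 4 rose and 2 fell in clone 3, 11 rose and 1 fell in clone 13, and 4 rose and 7 fell in A375. Over all genes with an E-box the shares that rose were 27%, 21%, 22.3% and 20.6% in the same order. Without one they were 25.5%, 19.2%, 21.5% and 22.4%. The shares that fell were 28.4%, 20%, 23.5% and 24.7% with an E-box and 24.5%, 18%, 20.9% and 22.7% without one. The members' median log2 fold changes with and without an E-box were 0.54 and 0.15 in MITFKO, 0.11 and 0.05 in clone 3, 0.45 and 0.21 in clone 13, and 0.26 and -0.14 in A375. A match of letters is not a bound site, and these counts and medians carry no test.

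In clone 3, which held the least TFE3 mRNA in SKMEL28, 12 members from all 5 roles rose, and the falls were CTSB, TPP1, GAA, NPC1 and LAMP3. Rises were called for 2 of 10 proteases, 3 of 8 glycosidases, 1 of 4 sulfatases, 3 of 5 lipid proteins and 3 of 9 membrane proteins, and over all genes 18.2% rose and 17.6% fell. LAMP2, the LAMP1 relative that also serves chaperone-mediated autophagy, had 322, 305 and 307 CPM in clone 3, against 231, 216 and 199.6 CPM in MITFKO (log2FC 0.53 ± 0.061 SE, adjusted p = 5.44e-07). GLA, the alpha-galactosidase A deficient in Fabry disease, had 58.5, 63.1 and 62.8 CPM in clone 3, against 43.8, 42.6 and 44.9 CPM in MITFKO (log2FC 0.49 ± 0.072 SE, adjusted p = 1.55e-05). LIPA, the acid lipase that splits cholesteryl esters, had 107, 117 and 107 CPM in clone 3, against 84.0, 80.7 and 79.2 CPM in MITFKO (log2FC 0.44 ± 0.066 SE, adjusted p = 1.83e-05). No library of clone 3 overlapped MITFKO for LAMP2, GLA or LIPA. SCARB2 rose by 0.48 ± 0.052 SE (adjusted p = 2.26e-07), the values being those given with the shared members.

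The falls of clone 3 were led by LAMP3, which had 1.27, 1.65 and 1.00 CPM in clone 3, against 17.8, 17.0 and 15.6 CPM in MITFKO (log2FC -3.67 ± 0.26 SE, adjusted p = 4.15e-10). GAA had 70.0, 85.7 and 72.9 CPM in clone 3, against 93.4, 97.9 and 100.05 CPM in MITFKO (log2FC -0.35 ± 0.097 SE, adjusted p = 0.0104). CTSB had 1578, 1747 and 1538 CPM in clone 3, against 1949, 2006 and 2129 CPM in MITFKO (log2FC -0.32 ± 0.067 SE, adjusted p = 0.000647). All 3 libraries of clone 3 were lower than all 3 of MITFKO for LAMP3, GAA and CTSB, although for GAA the call ended without clone 3 replicate 1 (adjusted p = 0.0521). TPP1 had 215, 226 and 223 CPM in clone 3, against 253, 259.8 and 268 CPM in MITFKO (log2FC -0.23 ± 0.058 SE, adjusted p = 0.00334). LAMP3 in clone 3 lay near the 0.861 CPM of the wild-type library, while CTSB, TPP1 and GAA in clone 3 lay above their wild-type values of 814, 109 and 63.5 CPM.

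The calls of 3 smaller rises in clone 3 ended when 1 of several libraries was left out, which also leaves fewer replicates. The call of NAGLU, a heparan sulfate glucosaminidase (log2 fold change 0.20), ended without MITFKO replicate 1 (adjusted p = 0.159), MITFKO replicate 2 (0.0861), MITFKO replicate 3 (0.0514) or clone 3 replicate 2 (0.227). That of ASAH1, acid ceramidase (0.20), ended without MITFKO replicate 1 (adjusted p = 0.0572), MITFKO replicate 2 (0.0728), MITFKO replicate 3 (0.13), clone 3 replicate 1 (0.0509) or clone 3 replicate 2 (0.151), and that of PSAP, the precursor of the saposins (0.24), without MITFKO replicate 1 (adjusted p = 0.0721), MITFKO replicate 2 (0.0532) or clone 3 replicate 2 (0.0803). In these fits the log2 fold changes ran from 0.12 to 0.21 for NAGLU, 0.14 to 0.22 for ASAH1 and 0.19 to 0.24 for PSAP. The rises numbered 8 without MITFKO replicate 1, MITFKO replicate 2 or clone 3 replicate 2.

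In clone 13, which kept more TFE3 mRNA, 24 members rose and 3 fell, and GALNS and CTSF had the largest rises. Rises were called for 7 of 10 proteases, 6 of 8 glycosidases, 3 of 4 sulfatases, 4 of 5 lipid proteins and 4 of 9 membrane proteins, where 20.5% of all genes rose and 20.2% fell. GLB1, which cleaves galactose from GM1 ganglioside and keratan sulfate, had 121, 144 and 119 CPM in clone 13, against 84.5, 84.2 and 81.1 CPM in MITFKO (log2FC 0.62 ± 0.070 SE, adjusted p = 3.64e-07). CTSD had 4359, 6025 and 4387 CPM in clone 13, against 3069.8, 3169 and 3428 CPM in MITFKO (log2FC 0.61 ± 0.12 SE, adjusted p = 0.00238). PSAP had 3731, 4645 and 3729 CPM in clone 13, against 2588, 2651 and 2719 CPM in MITFKO (log2FC 0.61 ± 0.075 SE, adjusted p = 2.96e-06). The groups did not overlap for GLB1, CTSD or PSAP, and replicate 2 of clone 13, the library that stood apart, was the highest for each. Without that library 23 members rose and 4 fell. GAA, NPC2, ARSA, LAMP2 and GUSB followed, with log2 fold changes of 0.54, 0.54, 0.51, 0.48 and 0.46; NPC2 hands cholesterol to NPC1, ARSA desulfates sulfatides and GUSB is the beta-glucuronidase.

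LAMP3 had 0.347, 1.04 and 0.440 CPM in clone 13, against 17.8, 17.0 and 15.6 CPM in MITFKO (log2FC -4.75 ± 0.28 SE, adjusted p = 2.05e-11). SGSH, the sulfamidase of heparan sulfate breakdown, had 32.2, 36.9 and 33.4 CPM in clone 13, against 41.6, 43.1 and 42.0 CPM in MITFKO (log2FC -0.30 ± 0.086 SE, adjusted p = 0.0067). The groups did not overlap for either gene, and with NPC1 they were the 3 falls of clone 13. The call of TPP1 (log2 fold change 0.16) ended without MITFKO replicate 1 (adjusted p = 0.122), MITFKO replicate 2 (0.0907) or clone 13 replicate 2 (0.0926). The calls of CTSA and TPP1 ended with a GC-content offset (adjusted p = 0.0873 and 0.0609).

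The clones were also set against each other directly. In clone 13 relative to clone 3, 17 members were higher and 5 lower, against 27.6% of all genes called, of which 14.3% were higher and 13.4% lower. The higher members included 7 of 10 proteases, and CTSB, TPP1 and GAA had opposite called directions in the clones, falling in clone 3 and rising in clone 13. GAA had 127, 166 and 129.6 CPM in clone 13, against 70.0, 85.7 and 72.9 CPM in clone 3 (log2FC 0.89 ± 0.097 SE, adjusted p = 5.61e-06). CTSB had 2459, 2929 and 2523 CPM in clone 13, against 1578, 1747 and 1538 CPM in clone 3 (log2FC 0.70 ± 0.067 SE, adjusted p = 9.17e-08). TPP1 had 283, 313 and 275 CPM in clone 13, against 215, 226 and 223 CPM in clone 3 (log2FC 0.39 ± 0.058 SE, adjusted p = 2.69e-05). The clones did not overlap for these 3 enzymes. SCARB2, ASAH1, SGSH, CLCN7, the chloride and proton exchanger, and LAMP3 were lower in clone 13, with log2 fold changes of -0.35, -0.20, -0.25, -0.18 and -1.07. The SCARB2 difference lay beside a median of -0.40 over chromosome 4. The lower members numbered 1 without clone 3 replicate 2 or clone 13 replicate 3: the call of ASAH1 ended without clone 3 replicate 1 (adjusted p = 0.0714), clone 3 replicate 2 (0.158), clone 13 replicate 1 (0.142) or clone 13 replicate 3 (0.167), that of SGSH without clone 3 replicate 2 (adjusted p = 0.081), clone 3 replicate 3 (0.138), clone 13 replicate 1 (0.122) or clone 13 replicate 3 (0.0969), that of CLCN7 without clone 3 replicate 1 (adjusted p = 0.101), clone 3 replicate 2 (0.063) or clone 13 replicate 3 (0.0783) and that of LAMP3 without clone 3 replicate 1 (adjusted p = 0.0627), clone 3 replicate 2 (0.123), clone 13 replicate 1 (0.107) or clone 13 replicate 3 (0.111). Of the higher members, MCOLN1 lost its call without clone 3 replicate 2 (adjusted p = 0.084), clone 3 replicate 3 (0.0899) or clone 13 replicate 2 (0.0684). A GC-content offset ended the calls of CTSA, ASAH1 and MCOLN1 (adjusted p = 0.126, 0.18 and 0.483).

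In A375, where TFE3 was edited and MITF was not, 6 of 10 proteases rose while 3 of 5 lipid proteins fell. Rises were called for 6 of 10 proteases (CTSF, CTSZ, CTSD, CTSA, CTSB and CTSL), 3 of 8 glycosidases (GUSB, GAA and HEXA), 1 of 4 sulfatases (GALNS) and 2 of 8 membrane proteins tested (LAMP1 and SCARB2). Falls were called for 2 proteases (CTSK and CTSC), GLA, IDS, 3 of 5 lipid proteins (ASAH1, GM2A and NPC2) and the membrane proteins NPC1 and CTNS. Over all genes 21.3% rose and 22.0% fell. GUSB had 80.4, 78.6 and 79.2 CPM in TFE3KO, against 58.3, 53.5 and 60.2 CPM in wild type (log2FC 0.47 ± 0.056 SE, adjusted p = 5.74e-10). CTSC had 270.5, 283 and 271 CPM in TFE3KO, against 404, 415 and 406 CPM in wild type (log2FC -0.57 ± 0.033 SE, adjusted p = 9.05e-21). The groups were far apart for both genes. CTSK, a collagen-degrading protease best known from osteoclasts, was scarce and had 0.675, 1.47 and 0.380 CPM in TFE3KO, against 1.60, 2.23 and 3.03 CPM in wild type (log2FC -1.42 ± 0.40 SE, adjusted p = 0.00266). Its 3 TFE3KO libraries were all under the wild-type ones, at summed counts of 62 in TFE3KO and 148 in wild type.

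ASAH1, which breaks ceramide down to sphingosine, had 19.97, 19.1 and 22.5 CPM in TFE3KO, against 29.5, 29.8 and 28.3 CPM in wild type (log2FC -0.51 ± 0.087 SE, adjusted p = 2.25e-06). GM2A had 25.6, 28.4 and 28.96 CPM in TFE3KO, against 34.6, 34.3 and 37.6 CPM in wild type (log2FC -0.37 ± 0.078 SE, adjusted p = 0.00011). Neither gene overlapped between the groups. Of the smaller changes, the call of CTSL (log2 fold change 0.14) ended without wild-type replicate 1 (adjusted p = 0.0965), wild-type replicate 2 (0.0767) or TFE3KO replicate 2 (0.079). The call of CTNS (-0.22) ended without wild-type replicate 1 (adjusted p = 0.0537), wild-type replicate 3 (0.232) or TFE3KO replicate 2 (0.211), and with DESeq2 (adjusted p = 0.0978).

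Whether the TFE3 effect differed between the lines was tested directly, as the mean of both DKO clones over MITFKO minus TFE3KO over wild type in A375, with 36 members tested. The clones differ from A375 in MITF editing and medium as well as in line, so these cannot be told apart. The effect was higher in SKMEL28 for 11 members and lower for 2. Called members were 36.1% of those tested, near the 37.7% of all genes called. Of all genes 18.5% were higher and 19.3% lower. All 5 lipid proteins were among the 11, with differences of 0.62 for ASAH1, 0.58 for LIPA, 0.55 for NPC2, 0.44 for PSAP and 0.40 for GM2A on the log2 scale. The others were GLA (0.81), CTSC (0.69), LAMP2 (0.58), GLB1 (0.31), NPC1 (0.25, a smaller fall in SKMEL28) and IDS (0.20). The effect was lower in SKMEL28 for LAMP3 (-2.93) and CTSZ (-0.33, a smaller rise in SKMEL28). LAMP3 had at most 0.742 CPM in any A375 library, so its difference is a fall in SKMEL28 beside a gene that was close to the counting floor in A375.

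GLA was the member called in opposite directions in both clones and A375. It had 58.5, 63.1 and 62.8 CPM in clone 3 and 60.01, 58.5 and 59.1 CPM in clone 13, against 43.8, 42.6 and 44.9 CPM in MITFKO. In A375 it had 35.2, 35.5 and 35.4 CPM in TFE3KO, against 47.5, 41.0 and 45.4 CPM in wild type. The edited groups lay above MITFKO in SKMEL28 and below wild type in A375, with no overlap (difference 0.81 ± 0.093 SE, adjusted p = 6.1e-08). In A375 the log2 fold change was -0.33 (adjusted p = 9.12e-05).

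The remaining opposite calls held for 1 clone each. CTSB and GAA fell in clone 3 and rose in A375, with log2 fold changes of -0.32 and -0.35 in clone 3 and 0.19 and 0.23 in A375, and rose in clone 13 (0.38 and 0.54); their differences between the lines were not called for the mean of both clones (adjusted p = 0.13 and 0.419). ASAH1 had 602, 665 and 589 CPM in clone 3 and 508, 606 and 499 CPM in clone 13, against 553, 545 and 519 CPM in MITFKO, and rose in clone 3 only. GM2A had 134, 135 and 131 CPM in clone 3 and 171, 182 and 161 CPM in clone 13, against 150.3, 154 and 140.4 CPM in MITFKO, and rose in clone 13 only. For ASAH1 and GM2A the clones were themselves called different from each other. NPC2 had 104, 109.6 and 97.1 CPM in clone 3 and 144, 165 and 147 CPM in clone 13, against 109, 105 and 101 CPM in MITFKO. In A375 NPC2 had 38.6, 37.3 and 39.3 CPM in TFE3KO, against 49.7, 46.7 and 44.1 CPM in wild type (log2FC -0.29 ± 0.068 SE, adjusted p = 0.000465). NPC2 thus rose in clone 13, overlapped MITFKO in clone 3 and fell without overlap in A375. IDS, the X-linked iduronate sulfatase, had 183, 166 and 169.7 CPM in clone 3 and 223, 232 and 208 CPM in clone 13, against 197, 188 and 186 CPM in MITFKO. In A375 IDS had 96.3, 94.5 and 89.4 CPM in TFE3KO, against 105, 104 and 103 CPM in wild type (log2FC -0.15 ± 0.047 SE, adjusted p = 0.00902). Clone 13 and A375 TFE3KO each stood clear of their comparison group for IDS. The genes of chromosome X, which carries GLA, LAMP2 and IDS, had a median of 0.16 in clone 13. The difference between the lines for IDS lost its call without MITFKO replicate 2 (adjusted p = 0.0701), MITFKO replicate 3 (0.0672), clone 3 replicate 1 (0.0552), wild-type replicate 1 (0.0657), wild-type replicate 2 (0.051) or TFE3KO replicate 3 (0.0921), and that of NPC1 without TFE3KO replicate 2 (adjusted p = 0.0733) or TFE3KO replicate 3 (0.0571). Setting A375 against clone 3 alone gave 10 lower members, both clones without their replicate 2 gave 8, and leaving out replicate 2 of clone 13 alone gave 5, beside the 2 from the mean of both full clones. CTSB, GAA, CTSH, ARSA, CTSF, GUSB, TPP1 and CTSA were the additional ones for clone 3 alone (log2 differences from -0.58 for GAA to -0.24 for CTSA). Clone 3 alone also added CTNS (0.31) and SCARB2 (0.22) to the higher members. With clone 13 alone, GAA, GALNS and MCOLN1 were added to the higher members (0.32, 0.51 and 0.33) and LAMP1 to the lower (-0.18). The difference of GAA was thus called in opposite directions for the clones. The difference of CTSZ was not called for clone 13 alone (adjusted p = 0.0723), and those of GLB1, GM2A, IDS and NPC1 were not called for clone 3 alone (adjusted p = 0.607, 0.0536, 0.907 and 0.0998). For IDS the difference was 0.02 with clone 3 alone and 0.38 with clone 13 alone.

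The unedited lines differed in how much of these transcripts they held, in 1 SKMEL28 library and 3 A375 libraries, with no test. Of 35 members with at least 1 CPM in a wild-type library, 16 were at least 2-fold higher in SKMEL28, against 22.2% of all genes, and 1 at least 2-fold lower, against 22.0%. SKMEL28 lay above all A375 wild-type libraries for 29 members and below all of them for 2, with a median ratio of 1.91 beside 0.979 over all genes. CTSH had 239 CPM in SKMEL28 wild type, against 7.40, 5.70 and 7.42 CPM in A375 wild type, a ratio of 34.9. CTSD had 4288 CPM in SKMEL28, against 161, 169 and 165 CPM in A375, a ratio of 26.0. ASAH1 had 453 CPM in SKMEL28, against 29.5, 29.8 and 28.3 CPM in A375, a ratio of 15.5. CTSK and CTSC were the members below every A375 wild-type library, CTSK by 11.2 times and CTSC by 1.76 times. The ratio of CTSK, which was also the 1 member at least 2-fold lower, rests on 5 counts (0.205 CPM) in the SKMEL28 library. The lines were grown in different media, so line and medium cannot be told apart.

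**Figure D4:**
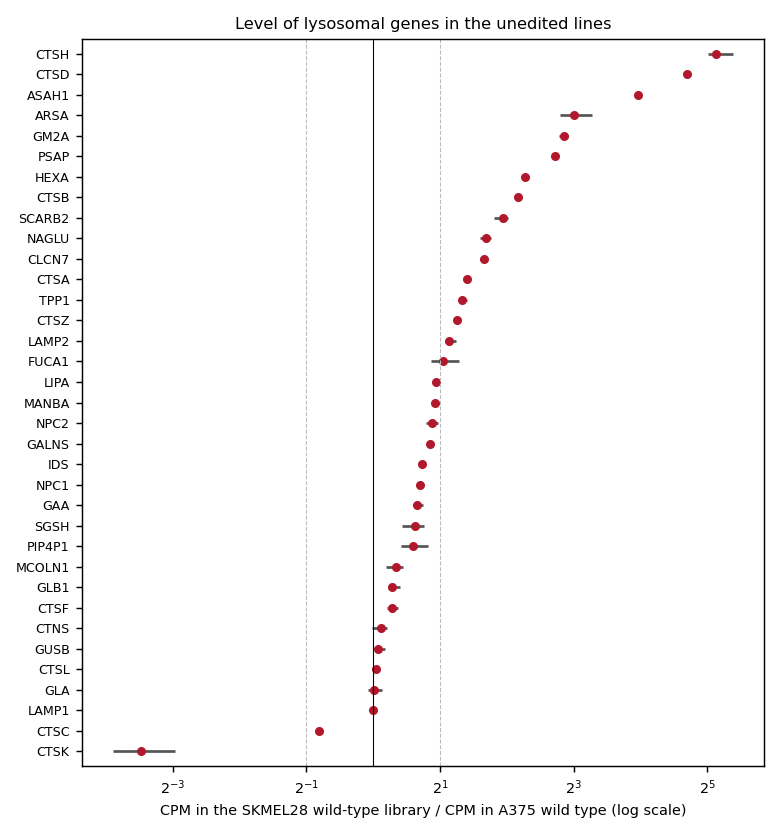
Ratio of the CPM of the SKMEL28 wild-type library to the mean CPM of the 3 A375 wild-type libraries for 35 members, on a log scale; lines span the ratios to the single A375 libraries and dashed lines mark 2-fold. CTSH, CTSD and ASAH1 have the highest ratios, at 34.9, 26.0 and 15.5, and CTSK and CTSC lie clearly below 1. The SKMEL28 library held only 5 counts of CTSK.

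Other lysosomal genes, listed beside the members with earlier results of these data known, behaved as follows. Of 21 other hydrolases tested in SKMEL28, 14 rose and 2 fell in MITFKO, 11 rose and 3 fell in clone 3, and 16 rose and 2 fell in clone 13. In A375 10 of 22 rose and 1, CTSS, fell (log2 fold change -3.19). Over all genes 25.2% rose and 23.4% fell in MITFKO, 18.2% and 17.6% in clone 3, 20.5% and 20.2% in clone 13, and 21.3% and 22.0% in A375. The rises of these hydrolases were 66.7%, 52.4%, 76.2% and 45.5% of those tested, and their median log2 fold changes were 0.49, 0.21, 0.40 and 0.14. Among the 3 largest rises of each comparison were IDUA, the iduronidase, in MITFKO (1.40) and HYAL2, a hyaluronidase, in clone 3 (0.75). They also included HGSNAT in clone 13 (0.79) and CTSV, cathepsin V, in A375 (1.38). HGSNAT, the acetyltransferase of heparan sulfate breakdown, is counted in this list but is not itself a hydrolase. CTSV was scarce in A375, at summed counts of 91 in TFE3KO and 30 in wild type. Of 19 other lysosomal membrane proteins, 10 rose and 3 fell in MITFKO, 7 rose and 3 fell in clone 3, 5 rose and 3 fell in clone 13, and 6 rose and 3 fell in A375. Their rises were 52.6%, 36.8%, 26.3% and 31.6% of those tested, of which that in clone 13 lay near the share over all genes, and their medians were 0.36, -0.01, 0.09 and 0.06. The nucleoside transporter SLC29A3 led in MITFKO (1.55), the ion channel TPCN2 in clone 3 (0.53), the cobalamin exporter LMBRD1 in clone 13 (0.79) and SIDT2 in A375 (0.66). Of 14 genes that deliver or activate hydrolases, 4 rose and 5 fell in MITFKO, 7 rose and 2 fell in clone 3, 6 rose and 1 fell in clone 13, and 3 rose and 5 fell in A375, with medians of -0.14, 0.15, 0.11 and -0.07. The rises were 28.6%, 50%, 42.9% and 21.4% of those tested, near the share over all genes in MITFKO and A375. The sorting receptor SORT1 fell in MITFKO (-1.07), rose in clone 3 (0.33) and clone 13 (0.32) and fell in A375 (-0.61), and the direct test between the lines called it (0.94, adjusted p = 4.54e-10). SUMF1, which activates all sulfatases, rose in each of the 4 comparisons (0.70, 0.43, 0.72 and 0.26).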

How the data were processed

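RNA was sequenced from flasks of each group. The deposited files hold raw counts of reads per gene symbol, 1 file a library, and the authors' values are whole numbers with no normalisation. The submitters' processing notes name STAR, featureCounts, DESeq2 and the build hg19, without versions or order. No source used here gives the strand setting, the annotation release or the handling of reads with several matches, so overlapping and antisense genes cannot be told apart. The file headers give another alignment input for the SKMEL28 wild-type library than for most others. Because the files use hg19 and the reference is GRCh38.p14, no gene coordinates are given other than those of the RefSeq promoter windows. Of the 38 members, 25 matched a window by symbol.

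Testing used edgeR 4.0.16 under R 4.3.3 on the counts (filterByExpr by group, TMM factors, robust quasi-likelihood F-test, Benjamini-Hochberg adjustment over all genes). SKMEL28 was fitted in 1 model of 10 libraries (14605 genes), A375 in a model of 6 (14012 genes), and the difference between lines in a joint model of 15 libraries without SKMEL28 wild type (15093 genes). Each SE was derived from the test, as the log2 fold change without its sign divided by the square root of the F statistic. CPM values printed use TMM factors over all 16 libraries. Alternatives were other scalings and filters, DESeq2 1.42.0, the compared groups alone, each replicate left out, single clones and a replicate block. GC-content offsets, both clones without replicate 2, and values relative to the chromosome median were added after seeing the data.

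The members and all gene lists were chosen with earlier results of these data known. Members given library by library were up to the 5 largest called rises and 5 largest called falls in MITFKO, each clone and A375, those called the same way in both clones and A375, and those called between the lines with opposite called directions. Of the other lysosomal lists, up to 3 genes per direction could be named. No pair of libraries was a duplicate. Same-numbered libraries of clone 13 and clone 3 deviated together (correlations 0.113, 0.323 and 0.111), all over the 0.1 at which numbers were taken as paired, although libraries 1 and 3 of the clones also correlated across numbers (0.142 and 0.124). Reads are not independent molecules where molecular identifiers are lacking. A count of 0 allows up to 3 counts, 0.0959 to 0.173 CPM by library, which covers counting error only.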

Additional observations from a re-analysis of the deposited data

Results flagged for a closer look

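The TFE3 effect differed between SKMEL28 and A375 by the direct test for 13 of 36 members tested. That was 36.1%, near the 37.7% of all genes called in the same test. Values are log2 differences of SKMEL28 minus A375. Lipid proteins gave 0.62 for ASAH1, 0.58 for LIPA, 0.55 for NPC2, 0.44 for PSAP and 0.40 for GM2A. Glycosidases gave 0.81 for GLA and 0.31 for GLB1, the sulfatase IDS gave 0.20, and the protease CTSC gave 0.69. Membrane proteins gave 0.58 for LAMP2, 0.25 for NPC1 and -2.93 for LAMP3. CTSZ gave -0.33. With the clones taken apart, clone 3 and clone 13 gave 0.70 and 0.68 for CTSC, 0.83 and 0.78 for GLA, 0.60 and 0.56 for LAMP2 and 0.58 and 0.58 for LIPA, all called in both (edgeR, adjusted p of at most 8.74e-06). For NPC2 they gave 0.27 and 0.84, and for GM2A 0.22, which was not called, and 0.59. The medium differed between the lines and MITF was edited only in SKMEL28, so line, medium and MITF editing cannot be told apart.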

How the results depend on the processing

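Over 3322 alternative values for single members, 3148 kept their side of the threshold, 93 lost a call and 81 gained one. Of members called in the main fit, 0 reversed direction. Direction was not checked for members that were not called in the main fit. Relative to the median of its chromosome, the called SCARB2 difference between clone 13 and clone 3 reversed to 0.046. Members that fell in MITFKO numbered 5 with upper quartile scaling, with no filter on low counts or with a CPM filter, 7 with GC-content offsets and 6 with the compared groups alone, against 3. Members that fell in clone 3 numbered 8 with the compared groups alone, against 5, and those that fell in clone 13 numbered 5 with GC-content offsets, against 3. Members lower in clone 13 than in clone 3 numbered 2 with the compared groups alone and 1 to 6 when a replicate was left out, against 5. Members with a lower TFE3 effect in SKMEL28 than in A375 numbered 10 with clone 3 alone, 8 without replicate 2 of both clones and 2 to 5 when a replicate was left out, against 2. The cause of these shifts was not tested. With the replicate block, rises and falls numbered 12 and 7 in clone 3, 25 and 3 in clone 13, 18 and 5 in clone 13 against clone 3, 12 and 9 in A375, and 11 and 2 for the difference between lines. The block changed no count by over 1.5 times and ended no call. No paired analysis was possible for MITFKO against wild type because the lone wild-type library is numbered 4. Fold changes correlated with GC content over all genes (Spearman's rho 0.224 in MITFKO and 0.171 in clone 13, but 0.0149 in clone 3 and 0.0474 in A375), a relation across genes, which are not independent. CTSK, CTSO, NEU1 and, in A375, LAMP3 and CTSV were limited by their few counts.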
